A study of Caenorhabditis elegans with 2 samples.

Results

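Of the 1489 autosomal REPO-1 peaks replicated between 2 ChIP-seq libraries of young adult Caenorhabditis elegans, 225 had their summit in a coding exon and away from gene starts. These coding-exon peaks were chosen by position alone. The summit had to lie in a coding sequence of a protein-coding gene, outside the window from 500 bp upstream to 200 bp downstream of any protein-coding transcript start, and more than 200 bp from any non-coding gene. The replicated list held 1789 peaks in all, and a further 28 peaks on the X chromosome met the same criteria apart from the chromosome. The worms were of strain OP688, genotype unc-119(tm4063) III; wgIs688, in which an integrated transgene expresses REPO-1 with a GFP-FLAG tag at its C terminus. Both replicates were whole mixed-sex young adults, collected 53 hours after recovery from starvation-synchronised L1 larvae obtained by bleaching. Chromatin was sonicated and the tagged protein was immunoprecipitated through its GFP tag. The samples form 1 group, with no untagged or input sample used here, so no test across samples was possible. In whole worms, occupancy in a few cells and weaker occupancy in many cells cannot be told apart.

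The tagged protein corresponds to human SF3A2, 1 of the proteins that make up SF3a. SF3a belongs to the U2 snRNP, which recognises the branch point upstream of the 3′ splice site and helps to assemble the spliceosome. Much splicing takes place while RNA polymerase II is still transcribing, so a splicing factor can be crosslinked to chromatin through the nascent transcript. Worm introns characteristically end in the letters TTTCAG. Worm genes are closely packed, and neighbours are arranged in tandem, back to back or tail to tail (convergent).

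A set of 5 of the strongest coding-exon peaks is given here as sequence, because the letters show how far coding sequence extends around the summit. Each line is 151 bp centred on the summit, on the host's coding strand, read from the RefSeq copy of WBcel235 (the same assembly as ce11). Capitals mark coding bases and lower case marks intron or untranslated bases.
dos-3: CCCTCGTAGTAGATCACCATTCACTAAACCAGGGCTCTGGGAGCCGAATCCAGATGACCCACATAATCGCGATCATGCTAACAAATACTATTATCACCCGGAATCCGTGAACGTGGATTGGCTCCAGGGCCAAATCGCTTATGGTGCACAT
stdh-1: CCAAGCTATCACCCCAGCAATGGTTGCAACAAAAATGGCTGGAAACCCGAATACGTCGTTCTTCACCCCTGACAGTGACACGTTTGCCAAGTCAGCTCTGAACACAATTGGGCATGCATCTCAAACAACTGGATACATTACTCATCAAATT
icl-1: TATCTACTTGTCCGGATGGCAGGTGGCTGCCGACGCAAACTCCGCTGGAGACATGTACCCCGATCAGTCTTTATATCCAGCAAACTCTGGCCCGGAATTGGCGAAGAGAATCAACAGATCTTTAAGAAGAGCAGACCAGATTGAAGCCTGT
F25B5.5: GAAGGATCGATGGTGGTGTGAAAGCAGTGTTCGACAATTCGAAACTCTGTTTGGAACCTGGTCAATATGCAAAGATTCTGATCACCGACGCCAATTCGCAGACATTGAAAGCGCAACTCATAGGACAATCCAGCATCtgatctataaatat
lelo-2: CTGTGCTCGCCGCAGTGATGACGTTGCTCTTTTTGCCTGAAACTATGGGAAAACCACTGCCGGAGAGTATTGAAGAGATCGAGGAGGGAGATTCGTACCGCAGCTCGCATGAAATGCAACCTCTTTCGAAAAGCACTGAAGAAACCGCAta
The windows of dos-3 (chrIII:835917-836067), stdh-1 (chrV:13907712-13907862) and icl-1 (chrV:727487-727637) were coding throughout. Those of F25B5.5 (chrIII:5943905-5944055) and lelo-2 (chrIII:1419974-1420124) ran past the last sense codon, at the right-hand end of the line. The next 3 windows had their summits 3, 4 and 5 bp inside an exon, and so show the junction between an intron and the exon that follows it.
lin-12: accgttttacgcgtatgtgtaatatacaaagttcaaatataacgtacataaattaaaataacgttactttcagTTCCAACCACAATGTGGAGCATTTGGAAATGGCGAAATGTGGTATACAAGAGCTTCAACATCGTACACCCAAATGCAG
hadb-1: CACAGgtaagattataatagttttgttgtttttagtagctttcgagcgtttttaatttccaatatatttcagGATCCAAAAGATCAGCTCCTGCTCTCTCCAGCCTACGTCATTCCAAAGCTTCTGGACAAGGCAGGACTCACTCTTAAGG
lsm-7: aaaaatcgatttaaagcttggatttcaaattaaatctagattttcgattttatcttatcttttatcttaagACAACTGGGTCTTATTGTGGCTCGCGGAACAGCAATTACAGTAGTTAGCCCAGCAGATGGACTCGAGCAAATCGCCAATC
They came from lin-12 (chrIII:9060447-9060597), which encodes a Notch receptor, hadb-1 (chrIII:8686955-8687105), which encodes a putative thiolase, and lsm-7 (chrIV:10933934-10934084), which encodes a protein of the U6 snRNA-binding Lsm ring. The letters TTTCAG ended the intron in lin-12 and in hadb-1 but not in lsm-7. In replicates 1 and 2 the summit was 0 and 30 bp away for lin-12, in an intron in replicate 2, and 52 and 111 bp away for lsm-7. Over all coding-exon peaks the median shift was 17 and 22.5 bp, so a place within a few bp of a junction is finer than the replicates resolve.

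The 225 summits lay in 206 host genes, and each summit had exactly 1 host. They were 15.1% of the autosomal peaks (Wilson 95% interval 13.4 to 17), while 20.9% of autosomal bases met the same positional rule. Those 17225154 bases are called eligible bases below. Where position within a gene is described, a base coding in several genes counts for each of them, which gives 17227399 eligible bases as the background. Intervals cover counting error over peaks only, and depth is unknown because the files hold no read counts. By chromosome, the density ran from 9.96 peaks per Mb of eligible sequence on V and 10.8 on I to 17.8 on IV, with 53 peaks on IV and 36 on I.

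Coding-exon peaks were weaker than the other autosomal peaks. Signal is the authors' value for each peak, on a scale that is not stated, and it was compared only within a list. The median was 155.3 (131.5 to 683.1, n = 225), against 177.1 for the other 1264 autosomal peaks and 159.8 for the 134 intronic ones. Of the 225, 77 (34.2%) reached the median signal of the replicated list, 173.3, against 49.7% of all autosomal peaks. The median region was 436 bp wide and was 75.6% coding sequence. In 40 cases the region, though not its summit, touched a promoter window, and in 34 it reached past the host's 3′ end.

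In most cases each replicate had a summit close to that of the coding-exon peak, with different ranks. Taking the 1789 strongest peaks of each replicate, 119 of the 225 (52.9%, 46.4 to 59.3) overlapped a strong peak of both, where the share over all autosomal peaks was 64%. Replicate 1 held 178 of them (79.1%) among its strongest, replicate 2 held 150 (66.7%), and 16 (7.11%) were in neither set. All 225 overlapped some region of replicate 1's full list and 224 overlapped one of replicate 2's. The replicate's own summit was a median of 17 bp away in replicate 1 and 22.5 bp away in replicate 2. It was within 50 bp for 164 of 225 (72.9%) in replicate 1 and 148 of 224 (66.1%) in replicate 2. The peaks were drawn from a list made from both replicates, so overlap and closeness of position are largely set in advance. In 177 of 225 (78.7%) the summits of both replicates were themselves in an eligible coding exon. The list that orders the peaks was itself made from both replicates, so its strongest peaks are bound to rank high in them: all 25 of the strongest coding-exon peaks and 49 of the next 50 were among the strongest of both replicates, against 9 of the weakest 75.

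**Figure D1:**
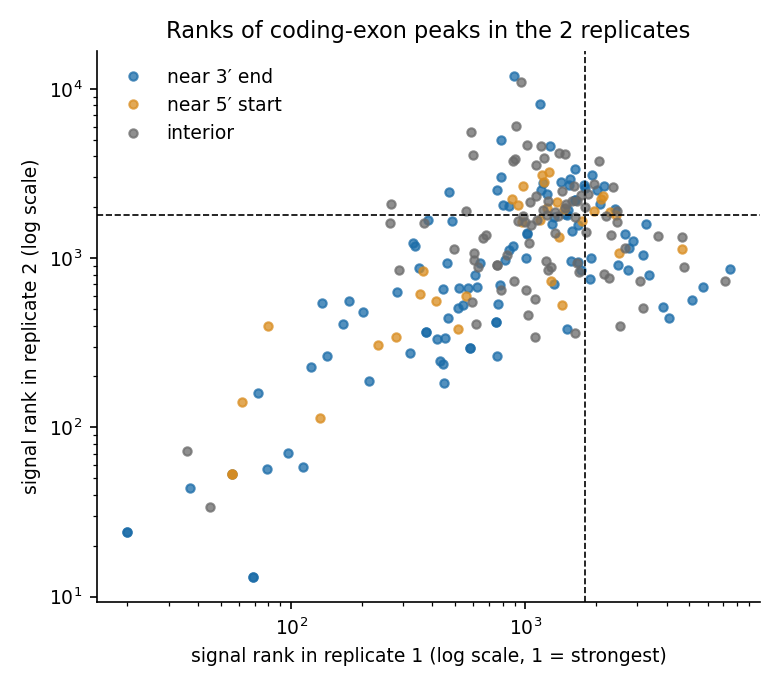
Each point is a coding-exon peak, placed by the signal rank (1 is strongest, log scales) of the region it overlaps in replicate 1 and in replicate 2, and coloured by its place in the host gene. Dashed lines mark rank 1789, and 119 points lie below and to the left of both. Ranks in the replicates are not independent of strength in the replicated list, which was made from both.

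Among exon ranks, the last coding exon was the most over-represented, at 2.72 times its eligible share. It held 103 summits (45.8%, 39.4 to 52.3), including 1 in the only coding exon of F41F3.3, where 16.8% of eligible bases lay in last coding exons. Internal exons held 114 (50.7%) against 79.8% of eligible bases, and first coding exons held 8 (3.56%) against 3.33%. The penultimate exon of genes with 3 or more coding exons was near its eligible share, with 19.6% of summits and 18.4% of eligible bases. It thus lacked the deficit of internal exons as a whole. Outside last coding exons, 16 of 122 summits (13.1%) lay within 500 bp of the host's 3′ end, against 7.90% of eligible bases. Among the 25 strongest coding-exon peaks, 18 (72%, 52.4 to 85.7) were in the last coding exon, and among the 75 weakest 32 (42.7%, 32.1 to 54) were.

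Distance to the end of the gene gave the same picture in base pairs. Within 500 bp of the host's annotated 3′ end lay 106 summits (47.1%, 40.7 to 53.6), against 19.9% of eligible bases. The fullest 100 bp was from 200 to 299 bp before the end, with 40 summits, 3.88 times the eligible share. It was flanked by 26 summits at 100 to 199 bp and 26 at 300 to 399 bp. The last 100 bp of the gene held 2 summits, 0.889% of them against 2.11% of eligible bases. At 400 to 499 bp there were 12 summits, 1.21 times the eligible share. The median distance was 536 bp (14 to 19689), against 1380 bp for eligible bases. The final 20% of the gene body held 101 summits (44.9% against 22%), and the middle 20% held 25 (11.1% against 22.6%).

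**Figure D2:**
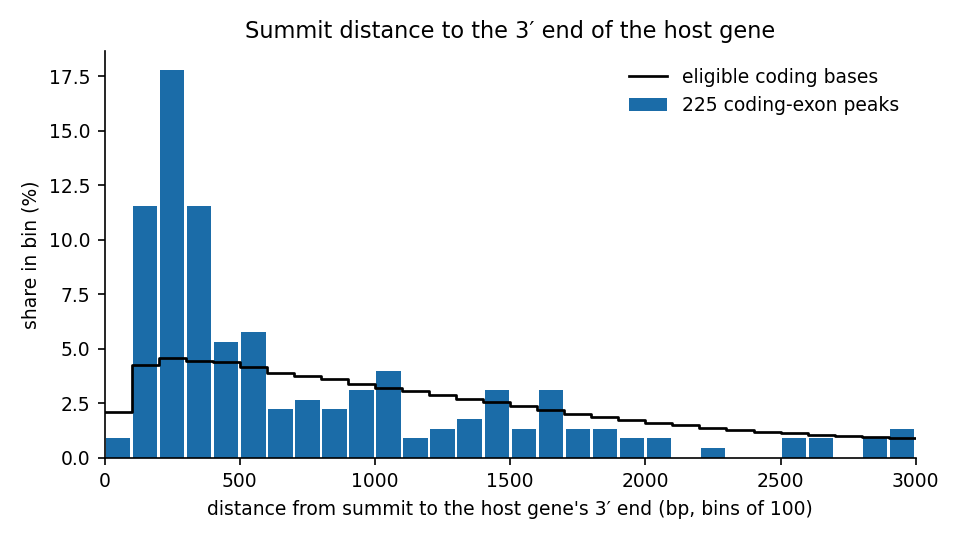
Bars give the share of the 225 coding-exon summits in each 100 bp of distance from the host gene's 3′ end, up to 3000 bp, and the line gives the same for eligible coding bases. The bars from 100 to 400 bp stand above the line, and most bars beyond 600 bp lie under it.

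Within coding exons, splice sites were not where the summits gathered. The rule admits summits in coding sequence only, so the intron side of a junction, where the branch point lies, was not counted here. Within 50 bp of an exon-intron junction lay 60 summits (26.7%, 21.3 to 32.8), against 37.7% of eligible bases. The deficit was on the 5′ splice site side, at exon ends: 19 summits (8.44%, 5.47 to 12.8) lay within 50 bp of one, against 18.5%. At 3′ splice sites, the exon starts next to which the U2 snRNP acts, the count was 42 (18.7%, 14.1 to 24.3), against 20.5%. Within 20 bp the contrast was larger. There, 2 summits (0.889%) were near a 5′ splice site against 7.50% of eligible bases, and 15 (6.67%) near a 3′ splice site against 8.16%. A distance of 20 bp is about the median shift of the replicates' own summits, 17 and 22.5 bp, so these counts are less certain than those at 50 bp. Last coding exons, which mostly have no 5′ splice site, held 45.8% of summits and 16.8% of eligible bases. The counts for each kind of splice site were not separated by exon rank, so the contrast includes that difference. The median summit was 97 bp from its nearest junction, and the median eligible base 72 bp. In the last coding exon, where most junctions are 3′ splice sites, 24.3% of summits and 23.5% of eligible bases were within 50 bp of a junction. In the other exons the shares were 28.7% and 40.6%. The overall deficit thus includes both the gap in the other exons and the larger part of summits in last coding exons, where fewer bases are near a junction. The windows reaching 100 bp to each side of summits held TTTCAG on either strand in 77 of 225 cases (34.2%, 28.3 to 40.6), against 38.3% of such windows at eligible positions taken every 50 bp.

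For the rest of the description the peaks were divided, after their positions had been seen, into 106 within 500 bp of the host's 3′ end, 34 of the remainder within 500 bp downstream of one of the host's own transcript starts, and 85 in the interior. The last group was 37.8% of peaks and 67.8% of eligible bases, and the start group 15.1% and 12.4%. Median signal was 163.5 near 3′ ends (132.4 to 683.1), 155.1 near starts (132.6 to 490.4) and 150.2 in the interior (131.5 to 530.3), with wide overlap. Of the peaks near 3′ ends, 64 of 106 (60.4%, 50.9 to 69.2) were among the strongest of both replicates, against 37 of 85 (43.5%, 33.5 to 54.1) in the interior.

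**Figure D3:**
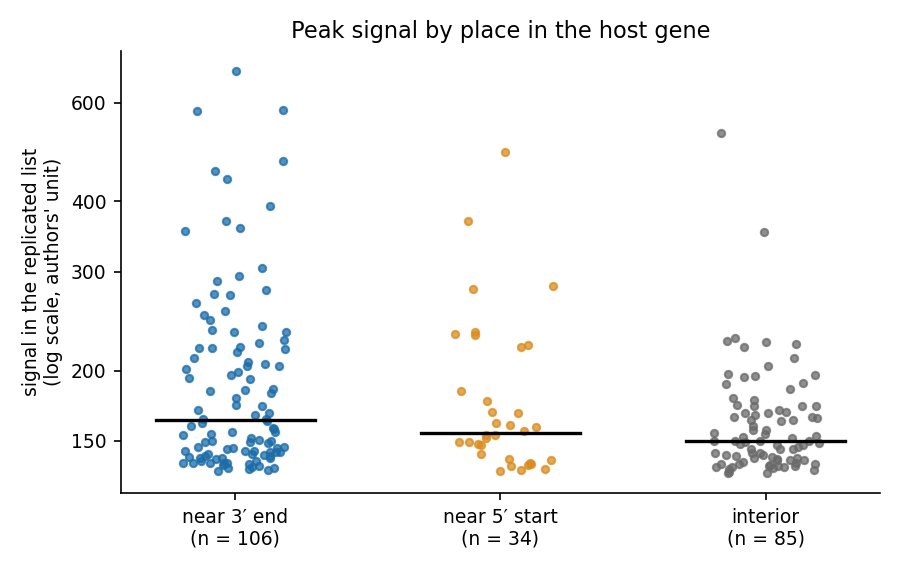
Each point is a coding-exon peak, placed by its signal in the replicated list (log scale, the authors' unit) and grouped by place in the host gene, with the median as a bar. The 3 groups overlap over most of their range, and 8 of the 10 highest points are near 3′ ends.

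Peaks near 3′ ends sat almost entirely at convergent gene pairs. The next protein-coding gene beyond the host's 3′ end was on the opposite strand for 100 of 106 (94.3%, 88.2 to 97.4), against 50.6% of the eligible bases in that zone. The same share was 29.4% for the start group and 45.9% for the interior, where eligible bases gave 43.7% and 45.7%. In 69 of the 106 (65.1%, 55.6 to 73.5) the tails of the 2 genes overlapped or touched, which held for 17.2% of the zone's eligible bases. That is 117 peaks per Mb of eligible sequence, against 3.55 per Mb where the next gene was in tandem at any gap. At convergent pairs the density was lower with wider gaps. It was 44.1 per Mb at 1 to 500 bp (23 peaks), 22.7 from there to 1000 bp (5 peaks) and 7.54 over 1000 bp (3 peaks). Tandem neighbours were not divided by gap, and the rule leaves out the 500 bp upstream of their starts. Whether orientation matters at an equal gap was not tested. Over the 100 convergent cases the median gap was -14.5 bp, which is an overlap. The summit was beyond the partner's 3′ end in 99 of them, at a median of 257.5 bp, and 265.5 bp before the host's own. A position 1 to 500 bp beyond a convergent partner was held by 88 of the 106 summits (83.0%, 74.7 to 89) and by 25.2% of the zone's eligible bases. Most of these summits were thus downstream of a gene on the other strand as well as inside a coding exon. The 6 exceptions, with a tandem neighbour, were nhr-114, icl-1, C25A1.16, hsp-12.3, lin-5 and lipl-5, with signals from 135.8 to 207.2. For this icl-1 summit, in exon 5, the replicate summits lay 2951 and 3044 bp away.

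**Figure D4:**
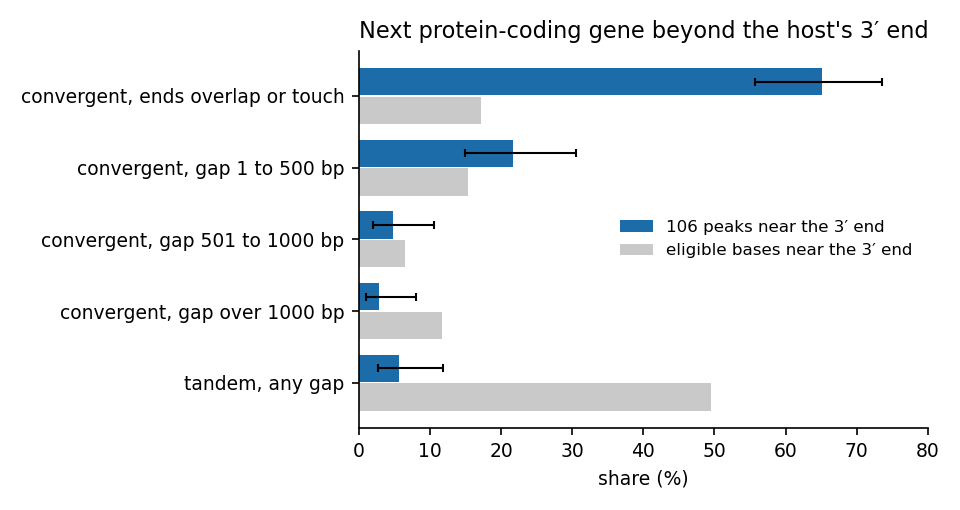
Blue bars give the share of the 106 peaks near 3′ ends by orientation and gap of the next protein-coding gene, with Wilson 95% intervals, and grey bars give the share of the eligible bases in the same zone. Convergent genes with overlapping or touching ends hold 65.1% of the peaks, and tandem neighbours 5.66%.

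The strongest coding-exon peak, in dos-3, had this arrangement. The gene dos-3 encodes a Delta and OSM-11-like protein, listed here with the Notch pathway, and its peak (chrIII:835749-836299) ranked 20 with a signal of 683.1. Signal was 414.9 in replicate 1 (rank 20) and 281.5 in replicate 2 (rank 24). The summit was in exon 11 of 11, 241 bp before the end of dos-3 and 178 bp beyond the end of zip-2, a bZIP transcription factor gene whose tail overlaps it by 64 bp. A further summit in the same region, with a signal of 358.2, was 440 bp before the end of dos-3.

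Next came stdh-1, a putative steroid dehydrogenase gene, with a signal of 581.7 (347.2 in replicate 1, rank 37, and 236.0 in replicate 2, rank 44). Its summit was in exon 4 of 4, and the partner C06B3.6 ended 343 bp away, across a gap of 92 bp. The peak in suro-1, a putative carboxypeptidase gene, had a signal of 579.8 (276.6, rank 69, and 321.0, rank 13) in exon 10 of 10. Its partner was pck-2, which encodes phosphoenolpyruvate carboxykinase, an enzyme of gluconeogenesis, and the summit was 265 bp beyond the end of pck-2. In F25B5.5 (471.7; 263.2, rank 79, and 221.6, rank 57) the partner was the polyubiquitin gene ubq-1, 139 bp away. These 4 hosts ranked in the top 80 of each replicate, and all had the summit in their last coding exon.

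The other peaks near 3′ ends among the 20 strongest had partners of several kinds, given here in order of signal. The summit in lelo-2 (452.6) was opposite Y82E9BR.3, which encodes the c subunit of ATP synthase, and that in best-18, a bestrophin gene (438.4), was opposite the citrate synthase gene cts-1. The partner of lsm-7 (392.9) was lgg-2, an autophagy gene of the Atg8 family. The summit in F59B8.1 (355.0) was opposite idh-1, an isocitrate dehydrogenase gene, and that in glt-6, an excitatory amino acid transporter gene (305.2), was opposite vdac-1, which encodes the mitochondrial outer membrane channel. R12E2.13 (294.4) faced the proteasome subunit gene rpn-8, and the SR protein gene rsp-8 (289.1) faced ntl-3. F31E3.12 (278.2) shared its tail with eef-1A.1, the gene of the elongation factor that brings aminoacyl-tRNA to the ribosome. Next in signal, F53F10.1 (273.7) faced F53F10.2, F32D8.3 (272.4) faced the uncharacterised gene F32D8.11, coq-6 (263.8) faced tos-1 and csn-5 (255.7) faced skn-1, which encodes a stress-response transcription factor. The partner of lin-12 (250.8) was the glutathione S-transferase gene gst-1. Among hosts with several peaks, dct-15 (246.6) lay opposite the fatty acid desaturase gene fat-3, lmd-2 (234.4) opposite rpl-4, and the glycogen debranching enzyme gene agl-1 (219.2) opposite elof-1.

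Over all 95 partners, the gene lists gave small numbers. Ribosomal protein genes accounted for 2 (rpl-4 and rpl-32) and translation factors for 3 (eef-1A.1, eif-2Bdelta and ife-3). Among the 6965 genes that are convergent partners of any gene with eligible bases in this zone, these lists had 30 and 9 members. Chemoreceptors, at 420 of the 6965, gave 1 partner, srh-76. A replicated summit in the partner's own promoter window was present for 14 of 95 (14.7%, 8.99 to 23.2), including cts-1, pck-2, vdac-1, eef-1A.1 and fat-3, against 227 of 6965 (3.26%). The partners were looked at after the orientation had been seen. Expression was not measured in these files.

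Of the 34 peaks near starts, 23 had their summit in coding exon 2 and 7 in coding exon 1. The rule leaves out the 200 bp after each start. Over all eligible bases, 3.33% lay in first coding exons and 14.4% in second coding exons of genes with 3 or more. The eligible share by exon within this group was not counted, so no preference for an exon can be read from these numbers. The first 100 bp that the rule admits, up to 300 bp downstream of the start, held 20 of the 225 (8.89%, 5.83 to 13.3), which is 1.72 times the eligible share, and the ratio was 0.786 over the 100 bp that end at 500 bp. The strongest was in icl-1, whose product joins the isocitrate lyase and malate synthase steps of the glyoxylate cycle. It had a signal of 490.4 (298.4 in replicate 1, rank 56, and 227.2 in replicate 2, rank 53) in coding exon 2 of 5. Y56A3A.22 followed with 369.6 (219.8, rank 133, and 169.1, rank 114) in coding exon 1 of 3. R119.3, a short-chain dehydrogenase gene, had 282.5, and C37C3.1 had 279.8. At C37C3.1 the replicate 1 summit was 93 bp away in a promoter window, and the replicate 2 summit 6 bp away in a coding exon. The only ribosomal protein gene among hosts, rpl-16, had a weak one (156.5), 226 bp downstream of its start, ranked 934 in replicate 1 and 2069 in replicate 2. taf-9, a TFIID subunit gene, had one at 253 bp (220.3), with the replicate 2 summit 129 bp away in a promoter window. Some of these summits were also close to the 3′ end of another gene on the same strand. That distance was 397 bp for Y56A3A.22, 265 bp for R119.3, 273 bp for C37C3.1, 332 bp for rpl-16 and 359 bp for taf-9. For icl-1 the nearest other 3′ end was 4916 bp away. Whether such peaks go with the host's start or the neighbour's end was not tested.

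Interior peaks had the lowest median signal of the 3 groups. Their hosts had a median length of 3900 bp, and the definition itself keeps them out of short genes. The strongest were in T28F4.4, a Pumilio-homology-domain gene, at 530.3 (348.0 in replicate 1, rank 36, and 194.5 in replicate 2, rank 73), and the MAP kinase-activated protein kinase gene mak-1 at 352.6. The mak-1 region was 3100 bp wide with 4 summits, and the replicate summits that ranked 45 and 34 in it lay 910 and 903 bp away, outside the gene, so they do not speak to the coding-exon summit. Both hosts also had a summit in their promoter window. The next interior peak, in nadk-2, was at 228.6. Interior refers to the host's own ends only. The T28F4.4 summit was 127 bp from the 3′ end of T28F4.5, on the opposite strand. For mak-1 and nadk-2 the nearest 3′ end of another gene was 7277 and 2941 bp away.

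Base composition differed by place. The 100 bp to each side of summits had a median G+C content of 43.3% (225 windows), against 39.8% at eligible positions. Medians were 41.3% near 3′ ends, 42.5% near starts and 45.3% in the interior, against 38.8%, 38.8% and 39.8% for eligible positions of the same zones. In the interior, 23 of 85 windows (27.1%) were at least 50% G+C, against 6.55% of eligible positions. The coding bases at the summit were richer in G+C than the host's whole coding sequence in 79 of 106, 20 of 34 and 55 of 85 cases. The same share over eligible positions was not counted, so these counts have no background. The part of base composition in the peak positions was not tested. The polyadenylation signal AATAAA was present in 42 windows (18.7%, against 24.6%) and GAGAGA in 28 (12.4%, against 10.2%). GTTCGANNC, the letters of the internal promoter element of tRNA genes, was in 2 (0.889%, against 1.98%), those of lgc-31 and F37C4.4. Each was searched on both strands.

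The hosts were 1.24% of the 16656 autosomal protein-coding genes with eligible bases. Their median length was 2742 bp, against 2026 bp for those genes, and a longer gene offers more eligible bases. A summit in their own promoter window was present in 22 of 206 (10.7%, 7.16 to 15.6, against 3.57% of the genes), and a summit within 500 bp beyond their 3′ end in 42 (20.4%, 15.4 to 26.4, against 4.02%). Hosts with a peak near their 3′ end had such a summit in 7 of 101 cases (6.93%, 3.4 to 13.6, against 3.86%). A host with several peaks was the exception, with 36 peaks in 17 hosts.

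A product name with a word ending in -ase, a count made after the names had been read, belonged to 66 of 206 hosts (32.0%, 26.1 to 38.7), against 20.3% of genes with eligible bases. By place the count was 33 of 76 interior hosts (43.4%), 13 of 33 start hosts (39.4%) and 22 of 101 hosts near 3′ ends (21.8%). The convergent partners of the latter had such a name in 31 of 95 cases (32.6%, 24.0 to 42.6), against 20.7% of the 6965 possible partners. Among hosts with several peaks, acs-19 encodes an acetyl-CoA synthetase, cpt-1 a carnitine palmitoyltransferase, fbp-1 fructose-1,6-bisphosphatase, lpin-1 the phosphatidate phosphatase lipin and ZK1320.9 an acetyl-CoA hydrolase.

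In hosts with several peaks, the summits were either neighbours in 1 enriched stretch or well apart in different exons. The pairs in dos-3, suro-1, dct-15, lmd-2, agl-1 and ztf-7 overlapped the same region in each replicate and so are not separate observations. The myotubularin phosphatase gene mtm-3 had 3 peaks in exons 5, 6 and 7 of 9, with signals of 168.8, 220.1 and 165.6 and ranks of 2268, 617 and 838 in replicate 1 and 766, 411 and 1041 in replicate 2. In icl-1, 2 summits in exon 2 and 1 in exon 5 (signals 490.4, 168.8 and 194.2) belonged to a single region of 4067 bp, wider than the gene of 3673 bp. All 3 took the same replicate regions, ranked 56 and 53, and so are not separate observations either. The summits of those regions were 2951 and 3044 bp from the exon 5 summit and do not speak to it. The flanking letters of the exon 5 summit and the weaker exon 2 summit, each 151 bp, follow the same convention as above.
icl-1, exon 5, chrV:724445-724595: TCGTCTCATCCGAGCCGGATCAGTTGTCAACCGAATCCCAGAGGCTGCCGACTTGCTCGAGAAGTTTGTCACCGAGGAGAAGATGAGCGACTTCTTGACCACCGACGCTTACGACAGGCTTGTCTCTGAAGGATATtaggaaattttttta
icl-1, exon 2, chrV:727693-727843: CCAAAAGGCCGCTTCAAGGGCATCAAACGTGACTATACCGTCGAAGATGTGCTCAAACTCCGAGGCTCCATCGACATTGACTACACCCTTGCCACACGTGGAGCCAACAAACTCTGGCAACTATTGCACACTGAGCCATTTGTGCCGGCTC
The exon 5 window ended past the stop codon, and the exon 2 window was coding throughout. The vitellogenin gene vit-6, which encodes a yolk protein, had peaks in exon 2 (153.6) and exon 3 (203.8) of 5. The ubiquitin ligase gene eel-1, the longest of these hosts at 17392 bp, had peaks of 143.0 and 142.6 in exons 4 and 5 of 15, and taf-9 had one at each end. The NAD kinase gene nadk-2 had peaks in exons 5 and 6 of 8.

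**Figure D5:**
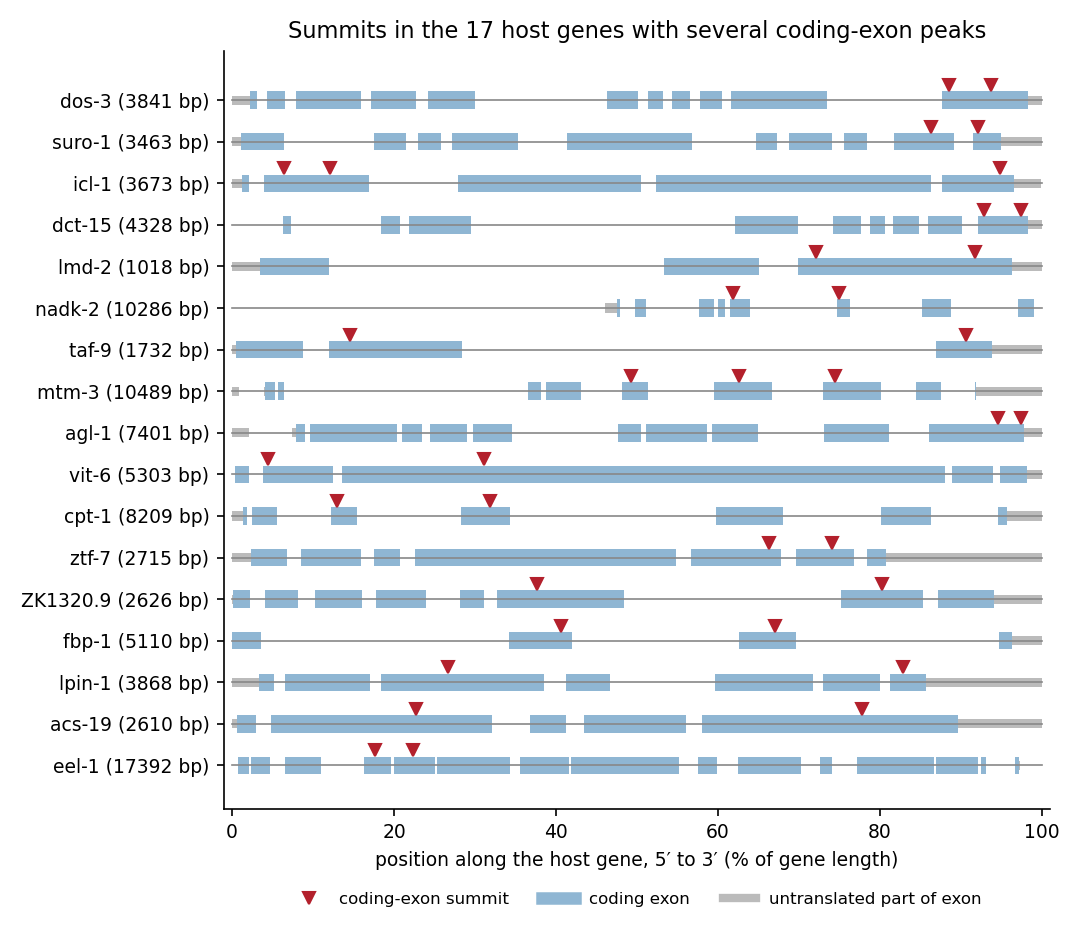
Each line is a host gene with several coding-exon peaks, drawn 5′ to 3′ as a share of its length, with coding exons in blue, untranslated exon parts in grey and summits as red triangles. The pairs in dos-3, suro-1, dct-15 and agl-1 sit at the right-hand end, and those of mtm-3, cpt-1, fbp-1 and eel-1 lie inside the gene.

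By gene list, the counts of hosts were small, and the lists were chosen with earlier results of these data known. Over all genes with eligible bases 1.24% were hosts, so a list of under 80 genes would hold under 1 host at that share. A count of 0 or 1 in such a list is within 1 host of that background. Shares above it, such as 8.33% of the Notch pathway list and 5.66% of the chaperones, rest on few hosts. Chemoreceptors (0.1575%) and nuclear hormone receptors (0.4065%) lay below it. None of these shares was tested. Families known for abundant expression gave 1 of 64 ribosomal protein genes, 1 of 34 translation factors (eef-2, signal 137.3), 3 of 53 chaperones and the only autosomal vitellogenin. The chaperones were the small heat shock gene hsp-12.3 (153.4), hsp-110 (136.0) and the Hsc70 gene hsp-1 (135.5). At hsp-12.3 the replicate summits lay 186 and 375 bp away, within 200 bp of a non-coding gene. They do not speak to its coding-exon summit. The hsp-110 peak overlapped no region of replicate 2. Cuticle collagens gave 4 of 145: col-140 (203.5), col-103 (151.8), col-124 (137.0) and col-122 (136.4). Splicing genes gave 2 of 64, lsm-7 and rsp-8, and the Notch pathway 2 of 24, dos-3 and lin-12. Large families gave nhr-114 (207.2) of 246 nuclear hormone receptors, clec-264 (211.1) and clec-142 (170.0) of 236 C-type lectins, and srt-47 (205.2) and srx-41 (147.5) of 1270 chemoreceptors. Of these, nhr-114, clec-264, clec-142 and srt-47 had their summit within 500 bp of the 3′ end, and srx-41 had it 555 bp away. Tissue lists gave the eggshell proteoglycan genes cpg-3 (145.8) and cpg-2 (133.9) of 72 germline genes, and pqn-87 (137.7) of 69 pharyngeal genes. No host came from the lists of 32 tRNA synthetases, 10 basement membrane, 60 histone, 44 cytoskeleton, 21 RNA polymerase II, 57 homeobox, 375 F-box and BATH, 30 muscle, 126 neuronal, 88 sperm, 63 intestinal or 41 epidermal genes.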

How the data were processed

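The deposited files were peak lists of REPO-1-GFP ChIP-seq for each of 2 biological replicates, for both pooled, and a replicated list derived by IDR, per the file headers and the accompanying notes. Each row gives a region, a summit, a signal value and the −log10 of a q-value, all deposited by the authors. The signal's scale, the sequencing depth, the software for alignment and peak calling and the threshold on IDR are all not given in the sources used here. The replicate lists held 30000 summits each with no threshold. Only the ce11 lists were used. Whole-series columns left unmapped numbered 0.

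Summits were placed on Ensembl release 115 gene models (WBcel235). Genes of every type other than protein-coding, pseudogenes included, counted as non-coding. Each summit was described on the host transcript with the longest coding sequence that holds it. Product names and sequence came from RefSeq. Shares have Wilson 95% intervals and stand beside the share of all eligible bases. A replicate rank is that of the strongest overlapping region (minimum overlap 1 bp). Python 3.11.15, numpy 2.4.6, pandas 2.3.3 and scipy 1.17.1 were used, and the exon assignment was tested on simulated data. Named genes are the hosts of the 20 strongest peaks, hosts with several peaks and up to 3 hosts in each of 24 lists. Others named in the text, such as partners, col-122, hadb-1 and the genes with tandem neighbours, were chosen after their values were seen. The members and the lists were chosen with earlier results of these data known. Alternatives were other promoter windows and distances, stronger peaks only, single-replicate lists, region midpoints and other transcript choices.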

Additional observations from a re-analysis of the deposited data

How the results depend on the processing

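Most values kept their size under the alternatives. With peaks at or above the median signal there were 77 peaks in 74 hosts, 10.4% of the autosomal peaks of that strength. Of these, 55.8% were in the last coding exon, 55.8% in the final 20% of the gene body, 61% within 500 bp of the 3′ end and 98.7% among the strongest of both replicates. At the highest q-value, 146 peaks in 135 hosts were 13.1% of autosomal peaks, and 74.7% were among the strongest of both replicates. A narrower promoter window (200 bp upstream, 100 bp downstream) raised the share of autosomal peaks to 18.1%. Using the strongest peaks of 1 replicate alone, which leaves out the other, gave 253 to 290 peaks, 16.8% to 19.5% of autosomal peaks, in 228 to 264 hosts. In those lists 38.6% to 40.7% were in the last coding exon, 37.9% to 39.9% in the final 20%, 24.1% to 26.6% within 50 bp of a junction and 42.1% to 42.3% within 500 bp of the 3′ end, with 86.9% to 94.3% of the latter at a convergent neighbour. Other distances set the share by construction, at 7.56% within 20 bp and 51.6% within 100 bp of a junction, and at 12.9% within 200 bp and 63.1% within 1000 bp of the 3′ end. The convergent share, 1 peak per host and uncounted pseudogenes were added after the data were seen. Apart from the shares by construction, the cause of these shifts was not tested. Across the settings with another window or distance from non-coding genes, eligible bases in last coding exons ranged from 15.2% to 17.5%. No paired analysis was possible because there was 1 group. Depth is unknown, so a position with no peak is not shown to lack REPO-1.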

Other observations

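Intronic peaks on autosomes had the same leaning to 3′ ends. Of the 134, 33 (24.6%, Wilson 95% interval 18.1 to 32.6) lay within 500 bp of a host's 3′ end, against 6.01% of the intronic bases that met the same rule. Another gene's 3′ end, on either strand, was within 500 bp of 125 of the 225 coding-exon summits (55.6%, 49.0 to 61.9) and of 7.08% of eligible positions taken every 50 bp. Soft-masked (repeat) letters made up 11.7% of the windows around coding-exon summits and 15.7% of those at eligible positions.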
